A study of Homo sapiens with 4 samples.

Results

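Re-expression of the ECM1b isoform in ECM1-silenced ovarian cancer cells was examined by setting the A8i-B library against the A8i library, 2 of the 4 RNA-seq libraries of the study. The comparison covered all genes of the deposited table. Of 9885 genes, 8735 had at least 1 event in A8i or A8i-B, and each of these was a member. An event is a whole number counted per gene and library by the authors. The kind of event is not given in the sources used here, so the values were read as event numbers and not as expression levels.

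All libraries came from HeyA8, a human ovarian cancer cell line. A8 is the parental line, and A8i is HeyA8 carrying a stable lentiviral short hairpin RNA (shRNA) against the ECM1 transcripts that encode ECM1a, ECM1b and ECM1c but not ECM1d. On the A8i background, A8i-A received a cDNA for hemagglutinin (HA)-tagged ECM1a and A8i-B one for HA-tagged ECM1b. Each line gave 1 library, so no replicate error could be estimated, no test of the conditions was possible, and every difference below is a difference between libraries. A8i and A8i-B share the ECM1 shRNA. They differ in the ECM1b cDNA and in its delivery and selection, which cannot be told apart because an A8i library with an empty vector was not analysed here.

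ECM1 is a glycoprotein of the extracellular matrix whose pre-mRNA is spliced into several isoforms. Alternative splicing joins different sets of exons of the same pre-mRNA, and is steered by SR proteins, hnRNPs and other RNA-binding proteins that favor or repress individual splice sites. The study asked which ECM1 isoform drives the growth of ovarian cancer cells and through which receptors and signals, and the table allows ECM1b to be set against silencing alone.

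The structural difference between the isoforms that define these libraries is a single internal exon. Exon 7 of ECM1a, chr1:150483933-150484307 on the forward strand of GRCh37, has 375 bases and is skipped in ECM1b, which has 9 exons instead of 10. The joined exon ends are shown, 15 bases from each side, to make visible what distinguishes the re-expressed isoform. They were read from the GENCODE annotation of GRCh37, and capitals mark bases of exon 7.
ECM1a, exon 6 to exon 7: tgtgccaaacttgtgTGGGAGGAAGCAATG
ECM1a, exon 7 to exon 8: TGTACATGGAAGGCCtgggaggataccctt
ECM1b, exon 6 to the exon after the skipped one: tgtgccaaacttgtgtgggaggataccctt

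ECM1 itself had 2 events in each of the 4 libraries. The number therefore gave no check of the silencing or of the cDNA, and the labels could not be checked from the table. Of 7 epithelial and ovarian carcinoma markers in the table, 5 had an event in A8i and 6 in A8i-B. Among them, the transcription factor gene PAX8 had 7 events in both libraries. Only CD14 of the leukocyte markers was in the table, with 0 events in A8i and 1 in A8i-B. Of 4 mesenchymal markers, 3 had an event in both. No endothelial or hepatocyte marker was among the genes.

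The A8i-B library had more events than A8i. The total was 20535 in A8i and 24236 in A8i-B, a ratio of 118.0% with a 95% exact interval of 115.8–120.2% that treats events as independent and covers counting error only. The totals of the libraries not compared were 24513 in A8 and 22691 in A8i-A, so A8i had the smallest total of the 4. Genes with at least 1 event numbered 7290 in A8i and 8068 in A8i-B, and the mean number of events per such gene was 2.8 and 3.0. The number of fragments sequenced in each library is not given in the sources used here. Whether depth moved with the totals was not tested.

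Among the 9885 genes, 3753 (38.0%) had more events in A8i-B than in A8i, 1992 (20.2%) had fewer, and 4140 had the same number. In all, 6959 events were gained and 3258 were lost. Most differences were of a single event: 2108 of the genes with more events and 1282 of those with fewer differed by 1. A difference of at least 5 events was seen in 188 genes with more and 65 genes with fewer, and of at least 10 events in 16 and 3. With a 2-fold limit on (events + 1), 2016 genes (20.4%) were higher in A8i-B and 910 (9.21%) were lower. Of these, 961 higher genes had 0 events in A8i and 1 in A8i-B, and 519 lower genes had 1 and 0. After both libraries were rescaled to the same total, the limit was passed by 724 higher and 924 lower genes. A gene with 0 and 1 events no longer reached the limit on the higher side but still did on the lower side. Without such genes the numbers were 1055 and 391 on events as deposited and 724 and 405 after rescaling.

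**Figure D1:**
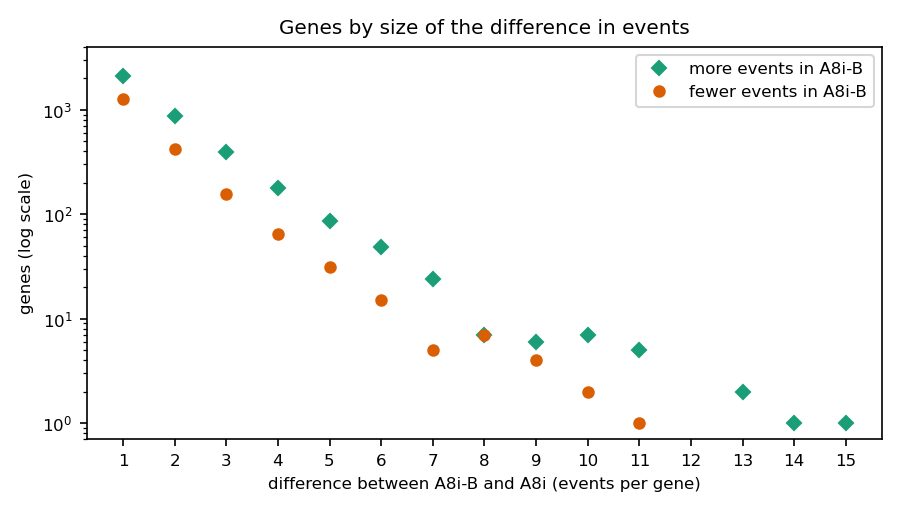
Number of genes (log scale) by the size of the difference in events per gene between A8i-B and A8i, with genes that had more events in A8i-B as diamonds and genes that had fewer as circles. Genes with more events outnumbered genes with fewer at most sizes; 7 genes on each side differed by 8, and the extremes were 15 more and 11 fewer.

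Part of the difference lay in genes seen in only one of the libraries. A total of 1445 genes had 0 events in A8i and at least 1 in A8i-B, and they held 2238 events. The reverse was seen for 667 genes with 885 events. Across the 6623 genes with an event in both libraries, the ratio was 111.9% (109.8–114.1%). That filter leaves out every gene at 0 in one library, more of them at 0 in A8i, so a smaller ratio than over all genes follows from the filter itself.

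The 12 genes with the largest gain of events included regulators of translation and protein turnover, metabolic enzymes and a transporter. The WD repeat protein gene WDR27 (chr6:169857307-170102163) had 7 events in A8i and 22 in A8i-B, with 9 in A8 and 6 in A8i-A, a log2 ratio of (events + 1) of 1.52 between A8i-B and A8i. GIGYF2, which encodes a partner of the cap-binding protein 4EHP in translational repression, had 8, 22, 15 and 13 events (log2 ratio 1.35), given here and below in the order A8i, A8i-B, A8 and A8i-A. IGFN1, an immunoglobulin-like and fibronectin domain protein of muscle, had 4, 17, 0 and 6. In these 3 genes A8i-B was the highest of the 4 libraries by 7 events or more. C21orf58, an open reading frame of chromosome 21, had 5 events in A8i and 18 in A8i-B, with 10 in A8 and 5 in A8i-A.

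In the other genes of the 12, A8i had the lowest number of the 4 libraries. AMT, the aminomethyltransferase of the mitochondrial glycine cleavage system, had 0 events in A8i and 11 in A8i-B, with 11 in A8 and 7 in A8i-A, so A8i was the library that stood apart. ZNF561, a zinc finger gene of chromosome 19, had 1, 12, 9 and 13 events, and CTSB, the lysosomal protease cathepsin B, had 3, 13, 12 and 9. SLC4A3, a chloride-bicarbonate exchanger, had 0, 10, 2 and 6. UBE3A, the E3 ubiquitin ligase lost in Angelman syndrome, had 3 events in A8i and 13 in A8i-B, with 14 in A8 and 5 in A8i-A. Both silenced libraries without ECM1b were thus low for UBE3A. The dynein-related gene DNHD1 had 6, 17, 13 and 17 events, ECHDC2, an enoyl-CoA hydratase domain protein of mitochondria, had 8, 19, 13 and 11, and the E3 ubiquitin ligase gene ARIH2 had 10, 21, 14 and 15. The next genes outside the 12 differed by 10 events, the same number as CTSB and UBE3A. They included BRD8, a bromodomain subunit of a histone acetyltransferase complex, with 9 events in A8i and 19 in A8i-B, with 9 in A8 and 10 in A8i-A.

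The 12 genes with the largest loss included regulators of autophagy, RNA processing and innate immunity. ATG4D, a protease that processes ATG8 proteins in autophagy, had 15 events in A8i and 4 in A8i-B, with 11 in A8 and 4 in A8i-A (log2 ratio -1.68). CPSF3L, also called INTS11, the endonuclease subunit of the Integrator complex, had 27, 17, 19 and 18 events. IRF3, a transcription factor of the type I interferon response, had 17, 8, 11 and 18. STK25, a kinase of the germinal center kinase family, had 14, 5, 10 and 12. A8i was the highest library for ATG4D, CPSF3L and STK25, while A8i-A held the most events of IRF3.

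RBFOX3, a splicing regulator known as the neuronal nuclear antigen NeuN, had 9 events in A8i and 0 in A8i-B, with 5 in A8 and 8 in A8i-A. KCTD17, an adaptor of cullin-3 ubiquitin ligases, had 10, 1, 12 and 10 (log2 ratio -2.46). For both genes the 3 other libraries were far above A8i-B. PRPF38B, a pre-mRNA processing factor, had 10 events in A8i and 2 in A8i-B, with 13 in A8 and 3 in A8i-A. WNK4, a kinase that controls ion transporters, had 10, 2, 7 and 3. In this pair of genes both libraries with a re-expressed isoform were low. C1orf159 had 10, 2, 5 and 10 events, the noncoding RNA AC159540.1 had 11, 3, 8 and 6, and C14orf159, a mitochondrial D-glutamate cyclase also called DGLUCY, had 13, 5, 12 and 7. A pseudogene labelled WASH7P on chromosome 12 had 10, 0, 4 and 2 events, but it belongs to a set of near-identical copies, and another gene of the same symbol on chromosome 1 had 8, 6, 4 and 4, so its value is uncertain. Of the 7 genes that lost exactly 8 events, DBNL and IP6K2 were left out by the rule for ties.

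**Figure D2:**
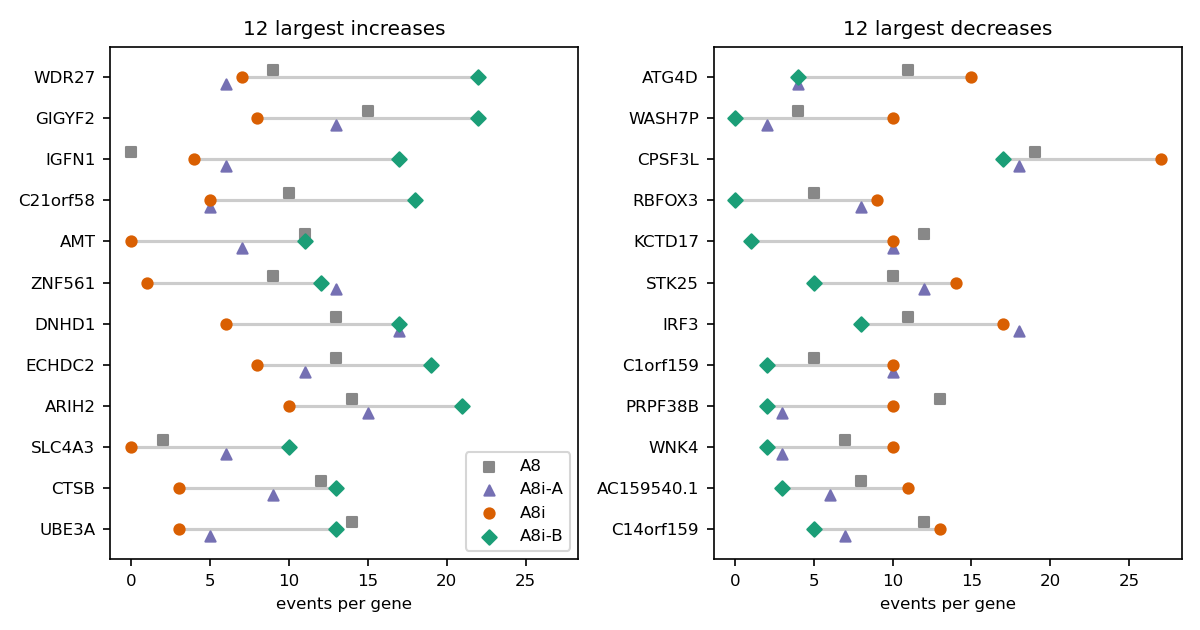
Events per gene in each of the 4 libraries for the 12 genes with the largest gain (left) and the 12 with the largest loss (right) from A8i to A8i-B; grey lines join A8i (circle) and A8i-B (diamond), and squares and triangles are A8 and A8i-A. WDR27 reached 22 events in A8i-B with no other library above 9, whereas AMT was at 0 in A8i only.

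Some of these genes overlap or closely face another gene, and how strand was treated in the counting is not given. UBE3A overlaps the antisense host gene SNHG14, which had 9 events in both A8i and A8i-B. C21orf58 faces PCNT, the gene of the centrosomal scaffold pericentrin, across 248 bases, and the pair differed in opposite directions: C21orf58 had 5 and 18 events in A8i and A8i-B, and PCNT had 7 and 2. AMT lies within the gene RP11-949J7.8 on the same strand, which had 3 events in A8i and 0 in A8i-B. ZNF561 is 12 bases from its antisense gene ZNF561-AS1, with 2 and 4 events. ATG4D overlaps KRI1 by 334 bases, and KRI1 had 9 and 11.

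Larger sets of genes with big differences were also read over all 4 libraries. For the 188 genes that gained at least 5 events, the mean number of events was 3.07 in A8i and 9.36 in A8i-B, with 6.10 in A8 and 5.52 in A8i-A. A8i-B was highest alone in 142 of them, A8i lowest alone in 119, and both held in 79, against 1602, 1446 and 260 of all 9885 genes. For the 65 genes that lost at least 5, the means were 10.8, 4.60, 7.82 and 6.74, with A8i highest alone in 47 and A8i-B lowest alone in 37, against 877 and 610 of all genes. All comparisons with A8i share that single library and are not independent of each other, and the genes of these sets were chosen on the same difference, which largely fixes these counts.

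Of the genes with 0 events in one library, 41 had at least 5 in A8i-B and 5 had at least 5 in A8i. Besides AMT and SLC4A3, the 41 included SYTL4, a granule exocytosis protein, which had 0, 9, 7 and 2 events. NLRC5, a regulator of MHC class I genes, had 0, 7, 4 and 3 events. SIPA1, a GTPase-activating protein for Rap1, had 0, 7, 1 and 0, and MAMDC4, an endosomal glycoprotein, had 0, 7, 0 and 2. PRKAA2, a catalytic subunit of AMP-activated kinase, had 0, 5, 0 and 1, and RASGEF1A, an exchange factor for Ras, had events in A8i-B alone, with 6. The 5 genes with the reverse pattern were RBFOX3, the WASH7P copy on chromosome 12, DDAH2 with 6, 0, 3 and 4 events, MMP19 with 5, 0, 0 and 2, and RPRD1B with 5, 0, 2 and 2. DDAH2 belongs to the dimethylarginine dimethylaminohydrolase family, MMP19 is a matrix metalloproteinase, and RPRD1B binds the tail of RNA polymerase II. SYTL4, NLRC5, SIPA1, MAMDC4, RASGEF1A, DDAH2 and RPRD1B were chosen after their values were seen.

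Several genes that the study followed up had few events in any library. HNRNPLL, the splicing repressor gene, had 1 event in A8i and 2 in A8i-B, with 2 in A8 and 2 in A8i-A, and the cholesterol transporter gene ABCG1 had the same numbers. The integrin genes ITGAX and ITGB2 encode the subunits αX and β2. ITGAX had 1 event in A8 and 0 in the other 3 libraries, and ITGB2 had 2, 2, 3 and 3. EPCAM, which encodes CD326, had 0 in every library. MYH9, the gene of nonmuscle myosin IIa, had 1 event in A8 and 0 in the other 3. With numbers this low, a difference of 1 event cannot be separated from counting error. Among splicing factor genes, HNRNPL had 1 event in every library, HNRNPM had 6, 7, 6 and 7, SRSF1 had 7, 5, 4 and 8, and SRSF6 had 1, 1, 3 and 1. HNRNPU, PPP2CB and PPP1R14C were not among the genes of the table.

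AKT and focal adhesion kinase signaling carries signals from integrins to the cytoskeleton. AKT2 had 7, 12, 9 and 10 events, and the integrin-linked kinase gene ILK had 4, 7, 7 and 4. AKT1 had 7, 6, 5 and 8, and PTK2, the gene of FAK, had 12, 10, 11 and 10. The paxillin gene PXN had 10, 9, 10 and 13, and RAC1 had 1 in each library. For myosins and their light chains (25 genes) the sums were 61, 69, 63 and 59, a ratio of 113.1% (79.0–162.3%), and MYO9B, an unconventional myosin, had 4, 7, 5 and 4. Actin-binding and actin-regulating proteins (48 genes) had 129, 143, 143 and 137 events, with more in 17 genes (35.4%) and fewer in 13 (27.1%), against 38.0% and 20.2% of all genes. The cortactin gene CTTN had 1, 4, 2 and 3, and PDLIM5, a scaffold of actin fibers, had 1, 4, 6 and 4.

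Genes of the extracellular matrix and its proteases had more events in A8i-B. The 67 genes summed to 134 events in A8i and 182 in A8i-B, with 163 in A8 and 178 in A8i-A, a ratio of 135.8% (108.1–171.1%). A gain was seen in 27 genes (40.3%) and a loss in 10 (14.9%), against 38.0% and 20.2% of all genes. The 2-fold limit was passed by 16 higher (23.9%) and 5 lower genes (7.46%), against 20.4% and 9.21%. These shares are near those of all genes, and the interval of the ratio includes the 118.0% of all genes. ADAM15, a membrane disintegrin and metalloproteinase, had 15, 23, 20 and 16 events. ADAMTSL4, a microfibril-binding protein whose gene lies near ECM1 on chromosome 1, had 0, 7, 4 and 2, and ADAMTS10, a protease linked to fibrillin, had 2, 9, 8 and 5. LAMA3, a laminin chain, had 0, 3, 4 and 1, and VCAN, the proteoglycan versican, had 0, 3, 2 and 1. For these 5 genes A8i was the lowest of the 4 libraries. Besides MMP19, the loss side was led by EFEMP2, an elastic fiber protein, with 8, 5, 6 and 4. ADAMTS10, LAMA3 and VCAN were chosen after their values were seen.

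Integrin subunits, the receptors for matrix proteins, had 24 events in A8i and 34 in A8i-B, with 32 in A8 and 32 in A8i-A over 12 genes. The ratio was 141.7%, with an interval of 81.6–249.7% that reflects the small sums. More events were seen in 6 genes (50.0%) and fewer in 1 (8.33%), beside 38.0% and 20.2% of all genes, and the list is small. ITGA10, a collagen receptor subunit, had 0, 3, 3 and 4 events, ITGA6, a laminin receptor subunit, had 2, 5, 3 and 4, and ITGA5, the fibronectin receptor subunit, had 4, 3, 2 and 4. Cadherins, catenins and other cell-cell adhesion genes (31 genes) had 88, 87, 98 and 75 events, a ratio of 98.9% (72.7–134.5%). In that list the tight junction scaffold gene TJP1 had 4, 1, 3 and 1, and the nectin-like receptor gene PVR had 7, 4, 7 and 4.

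Genes that carry out or regulate splicing had nearly the same number of events in A8i and A8i-B, although the library total was higher in A8i-B. SR proteins and other splicing regulators (76 genes) had 323 events in A8i and 321 in A8i-B, with 331 in A8 and 317 in A8i-A, a ratio of 99.4% (84.9–116.3%). Their share of all events was 1.57% (1.41–1.75%) in A8i and 1.32% (1.18–1.48%) in A8i-B, with 1.35% in A8 and 1.4% in A8i-A. A8i thus had the largest share, and A8i-B was near the remaining libraries. More events were seen in 26 genes (34.2%) and fewer in 20 (26.3%), against 38.0% and 20.2% of all genes. The 2-fold limit was passed by 2 higher (2.63%) and 7 lower genes (9.21%), against 20.4% and 9.21% of all genes. The share of lower genes was thus that of all genes, and the share of higher genes was smaller. Besides RBFOX3, CLK4, a kinase that phosphorylates SR proteins, had 10, 4, 7 and 10 events. On the side of gains, the cold-inducible RNA-binding protein gene CIRBP had 8, 14, 13 and 11, and ACIN1, a component of the exon junction complex, had 6, 10, 7 and 6. The 16 hnRNP genes had 72, 66, 72 and 74 events, a ratio of 91.7% (64.6–129.8%), and every one of them had an event in each library. HNRNPH1 had 26, 21, 24 and 26 events, among the highest numbers of the table, and HNRNPC had 13, 10, 8 and 8. HNRNPH3 had 2, 4, 2 and 2.

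The core spliceosome and RNA helicases (103 genes) had 277 events in A8i and 283 in A8i-B, with 320 in A8 and 296 in A8i-A, a ratio of 102.2% (86.3–121.0%). More events were seen in 35 genes (34.0%) and fewer in 25 (24.3%), against the same shares of all genes. PRPF4, a protein of the tri-snRNP, had 0, 4, 2 and 0 events and the helicase gene DDX47 had 3, 7, 4 and 7. On the loss side, next to PRPF38B, the helicase and innate sensor gene DDX41 had 10, 5, 5 and 9.

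Genes of protein synthesis were split into translation factors and ribosomal proteins. The 57 translation factor genes had 169 events in A8i and 209 in A8i-B, with 191 in A8 and 213 in A8i-A, a ratio of 123.7% (100.5–152.4%), with more events in 29 genes (50.9%) and fewer in 9 (15.8%), against 38.0% and 20.2% of all genes. The interval includes the 118.0% of all genes. EIF4A1, the cap-complex helicase, had 8, 13, 9 and 13 events, EEF1D, a subunit of the elongation factor 1 exchange complex, had 19, 24, 23 and 25, and EIF1AD had 4, 0, 4 and 1. Cytosolic ribosomal proteins (73 genes) had 223, 235, 224 and 227 events, a ratio of 105.4% (87.4–127.1%). There, RPS9, of the small subunit, had 6, 2, 6 and 6. The difference between these lists was not tested, and their intervals overlap. The mitochondrial ribosome (50 genes) had a ratio of 114.0%, the respiratory chain and ATP synthase (79 genes) of 107.0%, and the proteasome (39 genes) of 106.3%, each with an interval that includes 100%. MRPL43, of the large mitochondrial subunit, had 2, 6, 6 and 5 events, and NDUFAF6, an assembly factor of complex I, had 7, 13, 11 and 7.

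DNA repair and replication genes and chromatin genes had ratios near the 118.0% of all genes. The 129 repair and replication genes had 334 events in A8i and 410 in A8i-B, with 402 in A8 and 361 in A8i-A, a ratio of 122.8% (106.0–142.3%), with more in 55 genes (42.6%) and fewer in 21 (16.3%), near the 38.0% and 20.2% of all genes. RFC2, a subunit of the clamp loader, had 5, 10, 11 and 10 events, and FANCA, of the Fanconi anemia core complex, had 9, 14, 9 and 13. Conversely, the DNA polymerase gene POLL had 6, 2, 5 and 2. The 154 chromatin genes had 409, 489, 478 and 450 events, a ratio of 119.6% (104.6–136.7%). Next to BRD8, the methyl-CpG-binding protein gene MBD1 had 9, 16, 11 and 10, while the histone H4 methyltransferase gene KMT5A had 5, 1, 1 and 1 and EP400, an ATPase of the TIP60 complex, had 7, 3, 4 and 3.

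Genes of apoptosis and death receptors (63 genes) had 151 events in A8i and 187 in A8i-B, with 162 in A8 and 157 in A8i-A, a ratio of 123.8% (99.4–154.5%). More events were seen in 27 (42.9%) and fewer in 7 (11.1%), against 38.0% and 20.2% of all genes. The 2-fold limit was passed by 13 higher (20.6%) and 1 lower gene (1.59%), against 20.4% and 9.21%, so the share of higher genes was that of all genes. CASP8, the initiator caspase of death receptors, had 3 events in A8, A8i and A8i-A and 8 in A8i-B. CASP4, an inflammatory caspase, had 6, 1, 1 and 2. In both caspase genes 1 library stood apart from the other 3, A8i-B for CASP8 and A8i for CASP4. BAG6, a chaperone cofactor, had 7, 11, 9 and 10.

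Kinases and phosphatases were mixed. MAPK, CDK and related kinases (126 genes) had a ratio of 111.0% (94.5–130.6%), with more events in 40 genes (31.7%) and fewer in 25 (19.8%), below the 38.0% and 20.2% of all genes. STK36, a kinase of hedgehog signaling and motile cilia, had 1 events in A8i and 8 in A8i-B, with 8 in A8 and 4 in A8i-A, whereas STK40 had 9, 5, 6 and 9. PP1 and PP2 phosphatase subunits (47 genes) had a ratio of 120.2% (92.5–156.4%). PPP1R26 had 0, 4, 2 and 1 events and PPP1R14B, a PP1 inhibitor, had 3, 0, 0 and 3. Ubiquitin enzymes (209 genes) had 425, 498, 496 and 439 events, a ratio of 117.2% (102.7–133.7%) that turned to 99.3% when both sums were taken as shares of the library totals. Centrosome, cilium and microtubule motor genes (148 genes) had 357, 378, 360 and 332 events, a ratio of 105.9% (91.4–122.7%). The centrosomal gene CEP295 had 0, 5, 4 and 1 events, CEP85 had 0, 5, 2 and 1, and CEP83, needed to dock the basal body, had 5, 1, 3 and 1.

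Among transporter genes, solute carriers (151 genes) had 250 events in A8i and 300 in A8i-B, a ratio of 120.0% (101.1–142.5%). A8 had 356 and A8i-A had 314, both more than A8i-B. More events were seen in 52 solute carrier genes (34.4%) and fewer in 29 (19.2%), against 38.0% and 20.2% of all genes. ABC transporters (24 genes) had 56, 68, 68 and 58 events, a ratio of 121.4% (84.0–176.2%). More events were seen in 11 of them (45.8%) and fewer in 5 (20.8%). Other measures of this list went the other way. The 2-fold limit was passed by 2 higher (8.33%) and 5 lower genes (20.8%), against 20.4% and 9.21% of all genes. An event was seen in 17 of the ABC transporter genes in A8i and in 13 in A8i-B. By summed events, A8i was the lowest library for both lists. ABCA7, a phospholipid transporter, had 4 events in A8i and 10 in A8i-B, with 13 in A8 and 12 in A8i-A. ABCD4, needed for lysosomal cobalamin export, had 13, 17, 11 and 11. ABCC3, an organic anion pump, had events in A8i alone, with 4. Within solute carriers, SLC38A10 had 0, 7, 5 and 4 events and SLC25A22, a mitochondrial glutamate carrier, had 4, 0, 2 and 0.

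The 8 septin genes, which encode filament-forming GTPases, had 25 events in A8i and 31 in A8i-B, with 31 in A8 and 26 in A8i-A, and the 8 annexin genes, whose products bind membranes in the presence of calcium, had 44, 42, 49 and 40. ANXA2, the gene with the most events over the 4 libraries, had 26, 28, 32 and 26. The 9 stemness genes had 27, 27, 25 and 23 events. More events were seen in 2 (22.2%) and fewer in 4 (44.4%), beside 38.0% and 20.2% of all genes, and the list is small.

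Zinc finger genes and long noncoding RNAs had the highest ratios among the lists, though their intervals overlap those of others. The 305 genes with a ZNF symbol, most of which encode DNA-binding transcriptional repressors or activators, had 422 events in A8i and 604 in A8i-B, with 579 in A8 and 502 in A8i-A, a ratio of 143.1% (126.2–162.5%). More events were seen in 131 (43.0%) and fewer in 49 (16.1%), against 38.0% and 20.2% of all genes. At least 1 event was seen in 185 of the ZNF genes in A8i and 227 in A8i-B, against 7290 and 8068 of all 9885 genes. The ZNF share of all events was 2.06% (1.87–2.26%) in A8i and 2.49% (2.30–2.70%) in A8i-B, with 2.36% in A8 and 2.21% in A8i-A. A gain of at least 3 events was seen in 27 of the 305 ZNF genes and a loss in 6, against 763 (7.72%) and 284 (2.87%) of all genes. As shares, these counts were near those of all genes.

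Single ZNF genes followed different patterns over the libraries. ZNF561 was low in A8i alone. ZNF514 had 4 events in A8i and 14 in A8i-B, with 15 in A8 and 3 in A8i-A. ZNF266 had 9, 19, 9 and 16, so both libraries with a re-expressed isoform were high, and ZNF142 had 2, 10, 9 and 6. On the loss side ZNF529 had 6, 1, 3 and 3, and ZNF652 had events in A8i alone, with 4. Chromosome 19 held 143 of the 305 genes, which had 135 events in A8i and 237 in A8i-B, with 199 in A8 and 205 in A8i-A, a ratio of 175.6% (141.5–218.5%). The 162 ZNF genes elsewhere had 287, 367, 380 and 297, a ratio of 127.9% (109.3–149.8%), and the 554 other genes of chromosome 19 had a ratio of 114.6% (106.4–123.4%). Many ZNF genes of chromosome 19 are paralogs, and how reads shared between copies were counted is not given. ZNF142 and ZNF266 were chosen after their values were seen.

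Long noncoding RNA symbols (246 genes) had 328 events in A8i and 468 in A8i-B, with 480 in A8 and 474 in A8i-A, a ratio of 142.7% (123.6–164.8%). More events were seen in 96 (39.0%) and fewer in 38 (15.4%), against 38.0% and 20.2% of all genes. At least 1 event was seen in 120 of these RNAs in A8i and 149 in A8i-B, against 7290 and 8068 of all 9885 genes. LINC00704, also called MANCR, had 0, 7, 1 and 2 events, and NOP14-AS1 had 1, 8, 2 and 15. STXBP5-AS1 had 5, 1, 2 and 4, and NUTM2B-AS1 had 9, 5, 7 and 4. By type of symbol, LINC genes had a ratio of 165.6% (82 genes), antisense genes of 145.5% (138 genes) and small nucleolar RNA host genes of 110.3% (14 genes). As percentages of A8i, A8 and A8i-A were at 161.3% and 140.9% for LINC genes and 157.2% and 166.2% for antisense genes. For host genes they were at 110.3% and 105.9%. By annotation, 517 genes classed as lncRNA had a ratio of 142.1% (127.3–158.8%) and 9050 protein-coding genes of 117.0% (114.8–119.3%). For the lncRNA class, A8 and A8i-A were at 150.1% and 144.1% of A8i, and for protein-coding genes at 117.9% and 109.1%.

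**Figure D3:**
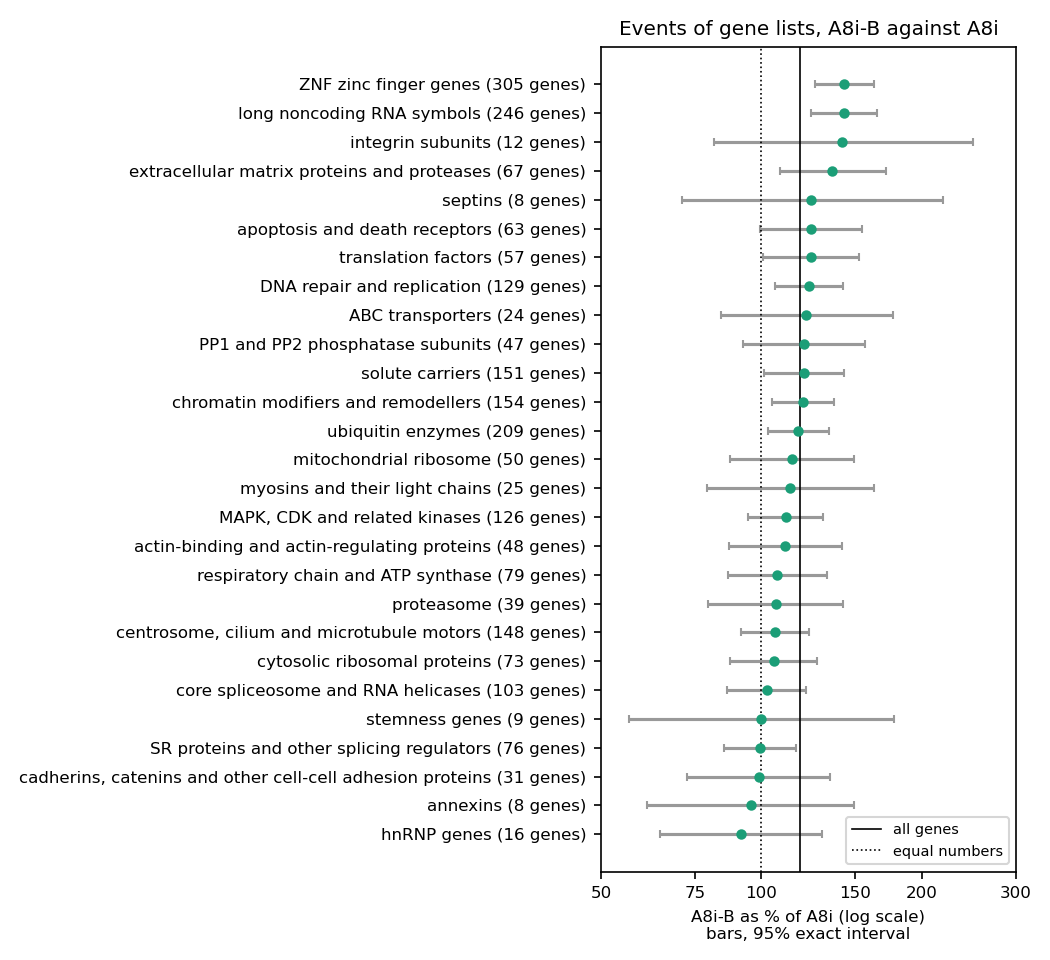
Summed events of each gene list in A8i-B as a percentage of A8i (log scale) with 95% exact intervals; the solid line is the value over all genes (118.0%) and the dotted line equal numbers. ZNF genes and long noncoding RNA symbols are highest, near 143%, while splicing regulators are at 99.4% and hnRNP genes at 91.7%.

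Over the 27 lists, 22 had a ratio above 100%, 1 was at 100% and 4 were below. The interval lay above 100% in 8 lists and below in 0. Scaled to the library totals, 12 lists were above 100% and 15 below. The median log2 ratio of (events + 1) was 0 in 23 of the 27 lists, as it was over all genes, since many genes had equal numbers in both libraries.

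Genes with few events had larger ratios, so lists were also compared within classes of event number defined by the libraries not compared here. In genes with 0 to 2 events in A8 and A8i-A together, the ratio of A8i-B to A8i was 136.3% over all genes, 168.5% for ZNF genes and 188.7% for long noncoding RNA symbols. In genes with 3 to 5 events it was 118.5%, 160.0% and 170.6%, and in genes with 6 or more 114.2%, 127.6% and 125.4%. The splicing regulators were at 100%, 97.9% and 99.6% in these classes. The order of the point values was therefore the same in each class for splicing regulators, all genes and ZNF genes, while the intervals overlapped in part. The core spliceosome and RNA helicases did not keep such an order. They were at 103.7%, 120.8% and 96.95%, and thus above all genes in the class of 3 to 5 events.

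**Figure D4:**
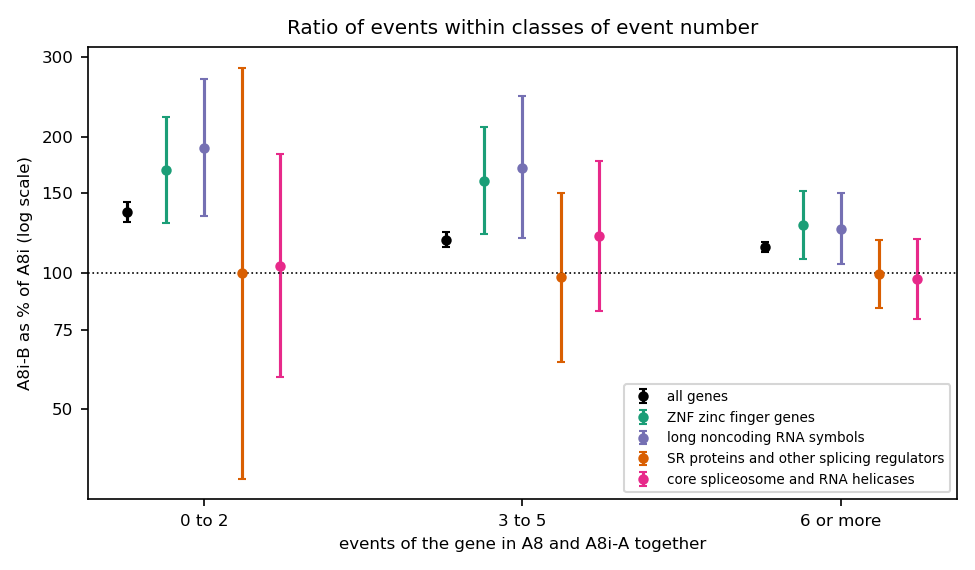
Summed events in A8i-B as a percentage of A8i (log scale) for all genes and 4 lists, within classes of the gene's events in A8 and A8i-A together; points are ratios and bars 95% exact intervals. ZNF and long noncoding RNA symbols lie above all genes in each class, and the splicing regulators lie near 100% in each, with an interval of 35.2–284.3% in the lowest class.

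Genes were then grouped by the letters at the start of their symbol. The prefix alone defines a group, so a group can take in genes of another kind. Examples are STK11IP among the STK symbols and VPS9D1-AS1 among the VPS symbols. Of 63 such prefix groups with at least 15 genes and 50 events, 56 had a ratio above 100% and 7 below, with a median of 116.7%. Counts of genes with more and fewer events in these groups stand beside 38.0% and 20.2% of all genes. The highest was FBXO, the F-box subunits of SCF ubiquitin ligases, whose 21 genes had 20 events in A8i and 37 in A8i-B, with 29 in A8 and 21 in A8i-A, a ratio of 185.0% (104.6–336.4%). FBXO41 alone had 1, 10, 5 and 0 events, and without it the ratio was 142.1%. The other FBXO genes had at most 3 events in A8i and at most 3 in A8i-B. LINC symbols (83 genes) had 96, 157, 154 and 133 events, a ratio of 163.5% (126.1–213.1%), and the clone-derived AC symbols (53 genes) had 58, 93, 117 and 94, a ratio of 160.3% (114.3–226.6%). In both groups A8i was the lowest library, and A8 was close to or above A8i-B. In the AC group, AC093838.4 had 6, 12, 32 and 6.

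Palmitoyltransferases with the prefix ZDHHC (18 genes) had 26 events in A8i and 41 in A8i-B, with 35 in A8 and 29 in A8i-A, a ratio of 157.7% (94.2–268.5%), with more events in 10 genes and fewer in 2. ZDHHC21 had 0, 4, 2 and 1 events, and ZDHHC7 had 1 in A8, A8i and A8i-A and 4 in A8i-B. Orphan and other G protein-coupled receptors named GPR (16 genes) had 25, 39, 34 and 30, a ratio of 156.0% (92.1–269.0%), with more events in 10 and fewer in 2. GPR161, a ciliary receptor of hedgehog signaling, had 1, 5, 2 and 1. Methyltransferase-like genes (METTL, 21 genes) had 57, 82, 63 and 70 events, a ratio of 143.9% (101.4–205.4%), with more in 11 and fewer in 3. METTL16, the methyltransferase of U6 snRNA, had 0, 5, 1 and 2 events, and METTL3, the catalytic subunit of the mRNA m6A writer, had 6, 9, 6 and 9. METTL17, a mitochondrial member, had 6 in each library. ZDHHC7, METTL3 and METTL17 were chosen after their values were seen. The clone-derived CTD symbols (46 genes) had 29, 44, 44 and 47 events, a ratio of 151.7% (92.8–251.5%), and the ZNF prefix (313 genes) had 426, 620, 586 and 510, a ratio of 145.5% (128.4–165.0%).

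The lowest prefix group was ATG, the autophagy genes, with 87 events in A8i and 76 in A8i-B, with 76 in A8 and 68 in A8i-A over 15 genes, a ratio of 87.4% (63.4–120.2%). It rested on ATG4D, without which the ratio was 100%. STK symbols (18 genes) had 50, 44, 55 and 53 events, a ratio of 88.0% (57.3–134.7%), and 108.3% without STK25. Sorting nexins (SNX, 18 genes) had 45, 40, 47 and 45 events, a ratio of 88.9% (56.6–139.2%), with more in 5 genes and fewer in 8. SNX15 had 4, 2, 4 and 4. Genes with the prefix RPS (38 genes), which is used for small ribosomal subunit genes, had a ratio of 95.7%. RNA-binding motif genes (RBM, 29 genes) had a ratio of 95.8%, and RBM26 had 7, 3, 6 and 4 events. Vacuolar sorting genes (VPS, 26 genes), ubiquitin-conjugating and related genes (UBE, 36 genes) and general transcription factors (GTF, 22 genes) had ratios of 98.1%, 98.9% and 103.3%. Within them, VPS9D1 had 3, 0, 4 and 4 events, UBE2J2 had 10, 5, 9 and 8, and GTF2H3, a subunit of TFIIH, had 6, 1, 6 and 6. The interval of each of these 8 groups includes 100%.

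**Figure D5:**
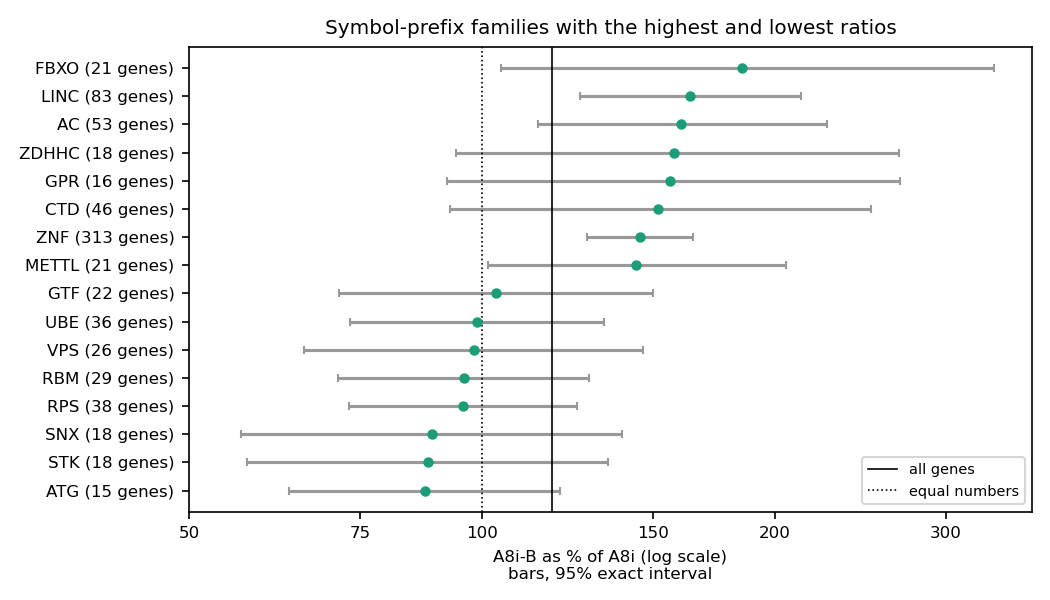
Summed events in A8i-B as a percentage of A8i (log scale) with 95% exact intervals for the 8 prefix groups at either end of the 63, highest first; the solid line is the value over all genes and the dotted line equal numbers. The groups run from 185.0% for FBXO to 87.4% for ATG, and the intervals of the lowest 8 all cross equal numbers.

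The larger number of events in A8i-B was spread over the genome. The ratio was above 100% on each of 23 chromosomes, from 105.7% on chromosome 14 to 129.3% on chromosome 6. Parental A8 was also above A8i on each of them, from 107.0% of A8i on chromosome 21 to 129.2% on chromosome 13. With genes sorted into 4 equal groups by the length of the longest annotated transcript, A8i-B was at 113.4%, 114.3%, 120.9% and 123.2% of A8i from shortest to longest. In the same groups A8 was at 113.4%, 116.7%, 119.1% and 128.5% of A8i, and A8i-A at 114.1%, 111.4%, 108.6% and 107.4%. In 4 groups by the number of annotated transcripts, A8i-B was at 122.5%, 118.6%, 118.3% and 115.7% of A8i from fewest to most. There A8 was at 126.4%, 118.0%, 118.5% and 117.4% of A8i, and A8i-A at 114.1%, 111.0%, 111.1% and 108.4%. Across 9818 annotated genes, the Spearman correlation of the event number with the number of annotated transcripts was 0.40 in A8i and 0.43 in A8i-B, and with transcript length -0.01 and 0.03. These are descriptions across genes within a library, and genes are not independent replicates.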

How the data were processed

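RNA-seq of 4 HeyA8-derived lines was analysed, with 1 library per line. According to the study's methods and the processing notes of the labels, the authors trimmed reads with Trim Galore, mapped them with TopHat 2.1.0 and used Cufflinks 2.2.1. The methods name the human build hg19, while the labels also name a mouse build. The identifiers in the table are human. The deposited values are events for each gene in each library, as whole numbers without a named unit. Their kind, counting program and filters are not given in the sources used here, and no normalization was seen. No read counts, FPKM values or sequencing depth were analysed here, so intervals cover counting error only.

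Columns were matched to lines through the labels, and 0 columns of per-sample values were left unused. Log2 ratios were log2 of (events + 1) in A8i-B over (events + 1) in A8i, which understates differences of genes with few events; a 2-fold limit was used. With 1 library per line no p-value was computed. Ratios of sums carry 95% exact Clopper-Pearson intervals conditional on the total. Of 9885 identifiers, 9818 matched GENCODE release 44 lifted to GRCh37, and 16 date-like symbols were read through the annotation. The genes named are the 12 with the largest gain and the 12 with the largest loss, the genes the study followed up, up to 2 members of each list in each direction, and the leading member of the 8 highest and 8 lowest prefix groups (at least 15 genes and 50 events). A few genes and 1 gene list are not reported here. Lists and members were chosen with earlier results of these data known. Calculations used scipy 1.17.1, pandas 2.3.3 and numpy 2.4.6 under Python 3.11.15 and were tested on simulated data. Alternatives were shares of the library total, a pseudocount of 0.1, filters on low event numbers, genes with an event in all 4 libraries, and leaving out leading genes.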

Additional observations from a re-analysis of the deposited data

How the results depend on the processing

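No paired analysis was possible because each line has 1 library. The total in A8i-B as a percentage of A8i moved from 118.0% to 111.9% in genes with an event in all 4 libraries, and was 118.8% without the 1% of genes with the most events and 117.0% in protein-coding genes. The number of genes with an event in A8i-B was 110.7% of that in A8i, and 115.0% for at least 2 events. Genes with more events in A8i-B numbered 3753, or 2146 among genes with an event in all 4 libraries, and genes with fewer numbered 1992, or 1219 among those. Compared as shares of the library total, 3640 genes were higher and 5095 lower, because a gene with equal numbers has a smaller share of the larger total. Genes at least 2-fold higher were 2016 as deposited, 724 after rescaling, 731 with at least 3 events in both libraries together and 515 with an event in all 4 libraries. Genes at least 2-fold lower were 910, 924, 284 and 212 under the same settings. After rescaling and without genes at 0 and 1, a setting chosen after seeing the data, they were 724 and 405. A pseudocount of 0.1 gave 2016 and 910. With whole numbers of events, the limit calls the same genes at 0.1 as at 1. That setting therefore could not change the counts and says nothing on their stability. Taking shares of the library total turned ubiquitin enzymes from 117.2% to 99.3%, moved 9 other sums of lists and prefix groups beyond their interval and left 83 within it. Only ubiquitin enzymes changed side among sums whose interval excluded 100%. Sums with an interval that included 100% also changed side, such as actin-binding genes, from 110.9% to 93.9%, and MAPK, CDK and related kinases, from 111.0% to 94.1%. Of the 27 lists, 22 were above 100% as deposited and 12 as shares. Leaving out the member with the most events left all 93 sums within their interval, but many of these intervals are wide. Some sums with an interval that included 100% changed side, such as the prefix groups STK, from 88.0% to 108.3%, and RNF, from 107.8% to 99.1%. The ratios without ATG4D, STK25, AC093838.4 (155.8%) or FBXO41 were also chosen after seeing the data. With 1 library per line, few events per gene and no depth given for each library, a difference of a few events in a gene cannot be separated from counting error.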

Other observations

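The genes below were chosen after their values were seen. MUTYH, a DNA glycosylase, was among the genes with the most events and had 26 events in A8i and 20 in A8i-B, with 19 in A8 and 23 in A8i-A. CENPT, a kinetochore protein, had 21, 24, 17 and 15. The glutaminyl-tRNA synthetase gene QARS had 18, 19, 24 and 20.

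FBXW8, a cullin-7 partner, had 1 events in A8i and 8 in A8i-B, with 0 in A8 and 1 in A8i-A, so A8i-B stood apart from the other 3 libraries. CAMK2G, a calcium/calmodulin-dependent kinase, had 3, 7, 14 and 3. CEP164, a centriole appendage protein, had 14, 10, 6 and 9.

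Among long noncoding RNAs, LINC01138 had 2 events in A8, A8i and A8i-A and 8 in A8i-B, and ZNF529-AS1 had 1, 7, 1 and 2, while its partner ZNF529 had 6, 1, 3 and 3. SNHG17 had 13, 9, 15 and 13. These values carry no replicate error and were not tested.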
